A study of Mus musculus with 18 samples.

Results

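Newly methylated regions in mouse Setd2 knockout progenitors were described here. They are the regions of chromosomes 1 to 19 whose DNA methylation level was at least 0.2 higher in the KO library than in the NHD13 library, in the authors' table of differentially methylated regions between both, and that shared no base with any region of the authors' table for NHD13 and WT. By this rule there were 11856 regions among 32485 on these chromosomes and 37430 in the whole table. The regions were thus chosen by their levels in KO and NHD13, and both levels and their difference are given as a description with no test. The level of WT at these regions is not given by the tables used here, and "newly" means only that no difference between NHD13 and WT was listed there.

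The KO group (labelled NHD13/Setd2 KO) was hematopoietic stem and progenitor cells (HSPCs) sorted from bone marrow of C57BL/6 mice that carry the NUP98-HOXD13 transgene (NHD13), with Setd2 deleted by Mx1-Cre, a recombinase under an interferon-inducible promoter that acts in blood cells and also in other tissues. The NHD13 group (labelled NHD13/Setd2 flox/flox) was HSPCs of mice with the same transgene and with floxed, undeleted Setd2. The sources used here do not say whether these mice carried Mx1-Cre or received the same induction. The AML group (labelled NHD13/Setd2 KO - AML) was C-Kit+ cells sorted from the spleens of KO mice at the leukemia stage, and the WT group was HSPCs of C57BL/6 mice without the transgene. The sources used here give no ages. Whole-genome bisulfite sequencing was made on 1 library per group, RNA-seq on 3 libraries per group, and ChIP-seq of H3K36me3 on 1 library of C-Kit+ spleen cells from each of the NHD13/Setd2 KO and NHD13 leukemias.

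DNA methylation in mammals is placed mostly on cytosines of CpG dinucleotides. Dnmt3a and Dnmt3b add it, Dnmt1 with Uhrf1 copies it when DNA is replicated, and the Tet enzymes oxidize it on the way to removal. Most CpG-poor DNA is methylated in mammalian cells, while CpG islands, dense stretches that often lie at promoters of housekeeping and developmental genes, are usually free of it. SETD2 trimethylates lysine 36 of histone H3 over the bodies of transcribed genes, and the PWWP domains of the DNMT3 enzymes bind H3K36 methylation. In blood, regulatory DNA of a lineage loses methylation as cells take up that lineage.

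The regions were of different kinds, and promoters at 7 of them are shown: 4 in CpG-dense DNA and 3 at genes whose RNA was lower in KO. They come from named genes whose promoter window held the most bases of a region, while most regions lay far from promoters. Regions over the starts of Vldlr and F13a1, whose RNA was higher in KO, are not among them. Each line gives the 250 bases before a gene's annotated start, 5′ to 3′ on the gene's strand, from RefSeq (GRCm38.p6, the same build as the mm10 coordinates of the tables), with the CpG dinucleotides inside the newly methylated region in capitals.
Irx2, chr13:72628570-72628819, plus strand: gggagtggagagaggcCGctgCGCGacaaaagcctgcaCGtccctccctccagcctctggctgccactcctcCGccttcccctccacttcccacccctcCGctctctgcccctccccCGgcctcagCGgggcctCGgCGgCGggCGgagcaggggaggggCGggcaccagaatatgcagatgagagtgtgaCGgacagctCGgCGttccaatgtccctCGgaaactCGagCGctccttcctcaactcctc
Grik3, chr4:125490446-125490695, plus strand: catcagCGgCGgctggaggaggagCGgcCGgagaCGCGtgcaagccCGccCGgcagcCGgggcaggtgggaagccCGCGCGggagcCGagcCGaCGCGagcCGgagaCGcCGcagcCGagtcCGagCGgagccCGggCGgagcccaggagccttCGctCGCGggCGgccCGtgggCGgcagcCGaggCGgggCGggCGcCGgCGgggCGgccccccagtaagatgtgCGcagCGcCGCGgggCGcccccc
Aqp5, chr15:99590778-99591027, plus strand: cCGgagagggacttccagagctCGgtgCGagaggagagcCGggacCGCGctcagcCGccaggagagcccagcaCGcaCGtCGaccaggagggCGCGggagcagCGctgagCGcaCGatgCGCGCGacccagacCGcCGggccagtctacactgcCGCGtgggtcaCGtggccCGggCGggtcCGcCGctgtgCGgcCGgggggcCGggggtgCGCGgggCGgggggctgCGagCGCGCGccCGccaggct
Crhr1, chr11:104132531-104132780, plus strand: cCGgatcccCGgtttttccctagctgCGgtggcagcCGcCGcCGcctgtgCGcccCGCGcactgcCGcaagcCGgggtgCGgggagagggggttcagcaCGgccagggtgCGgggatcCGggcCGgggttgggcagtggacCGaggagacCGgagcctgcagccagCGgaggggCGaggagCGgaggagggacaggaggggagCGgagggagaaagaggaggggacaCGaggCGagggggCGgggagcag
Prom1, chr5:44101737-44101986, minus strand: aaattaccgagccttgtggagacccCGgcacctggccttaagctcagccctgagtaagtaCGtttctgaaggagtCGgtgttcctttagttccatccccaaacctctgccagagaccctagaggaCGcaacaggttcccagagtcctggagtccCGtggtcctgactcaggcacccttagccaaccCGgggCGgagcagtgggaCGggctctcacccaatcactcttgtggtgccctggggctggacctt
Plbd1, chr6:136661894-136662143, minus strand: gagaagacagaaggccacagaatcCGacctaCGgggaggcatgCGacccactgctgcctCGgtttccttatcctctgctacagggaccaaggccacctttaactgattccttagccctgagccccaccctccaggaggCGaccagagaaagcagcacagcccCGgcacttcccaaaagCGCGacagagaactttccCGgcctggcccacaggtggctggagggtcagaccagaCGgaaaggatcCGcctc
Myl10, chr5:136692896-136693145, plus strand: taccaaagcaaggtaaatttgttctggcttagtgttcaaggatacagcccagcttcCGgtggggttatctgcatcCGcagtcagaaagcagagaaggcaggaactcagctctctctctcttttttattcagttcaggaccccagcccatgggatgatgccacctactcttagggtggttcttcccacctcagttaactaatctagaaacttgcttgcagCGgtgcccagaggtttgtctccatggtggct

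Of the 7 stretches, that of Grik3 held 42 CpG dinucleotides in the region, that of Aqp5 38, that of Crhr1 25 and that of Irx2 19. Prom1 had 8 in the region, Plbd1 11 and Myl10 3. The newly methylated regions of Irx2, Grik3, Aqp5, Crhr1 and Myl10 covered all 250 bases, while those of Plbd1 and Prom1 began at the 25th and the 26th base. At Irx2, a homeobox transcription factor gene of embryonic patterning, the level was 0.470 in KO and 0.203 in NHD13. At Grik3, the gene of a kainate-type glutamate receptor subunit, it was 0.578 in KO and 0.347 in NHD13. The water channel gene Aqp5 had 0.549 in KO and 0.318 in NHD13, and the receptor gene Crhr1, for corticotropin-releasing hormone, had 0.487 in KO and 0.266 in NHD13. The level at Prom1, which encodes the progenitor surface protein CD133, was 0.532 in KO and 0.281 in NHD13. At Plbd1, which encodes a phospholipase-like protein of myeloid granules, it was 0.462 in KO and 0.261 in NHD13, and at the myosin light chain gene Myl10 it was 0.708 in KO and 0.418 in NHD13. Myl10, the most CpG-poor of the 7, thus stood highest in both libraries.

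Letters of 5 motifs of blood transcription factors were searched on both strands of the 300-base windows from 250 bases before to 50 after a start. TTGCNNAA (C/EBP) was in 14.0% of the 358 windows that held part of a newly methylated region and in 10.9% of all 31396 windows. The PU.1 letters, GAGGAAG, were in 14.0% of these windows and 13.4% of all. The RUNX letters, TGTGGTT, were in 5.03% of these windows and 5.32% of all. The AP-1 letters, TGANTCA, were in 6.98% of these windows and 7.84% of all, and the GATA letters, AGATAAG, in 3.63% of these windows and 3.03% of all. Among the 7 stretches shown, Irx2 held GAGGAAG on its minus strand from base 236, and Prom1 held TGANTCA, which reads the same on both strands, from base 163, both inside the region. No other of these letters was in the 7 stretches. A match is a description of letters, not of binding.

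Over all 11856 regions, the median level was 0.813 in KO, with quartiles of 0.672 and 0.903, and 0.530 in NHD13, with quartiles of 0.387 and 0.634. The difference between the libraries had a median of 0.259 and reached 0.759. The typical region therefore held intermediate methylation in NHD13 and high methylation in KO, and 53.2% of the regions stood at 0.8 or more in KO. Unmethylated starting points were rare, with 4.59% of the regions under 0.2 in NHD13. The rule bounds both levels, and there was 1 library per group with no coverage in the tables, so the depth behind each level is unknown and no error can be given.

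**Figure D1:**
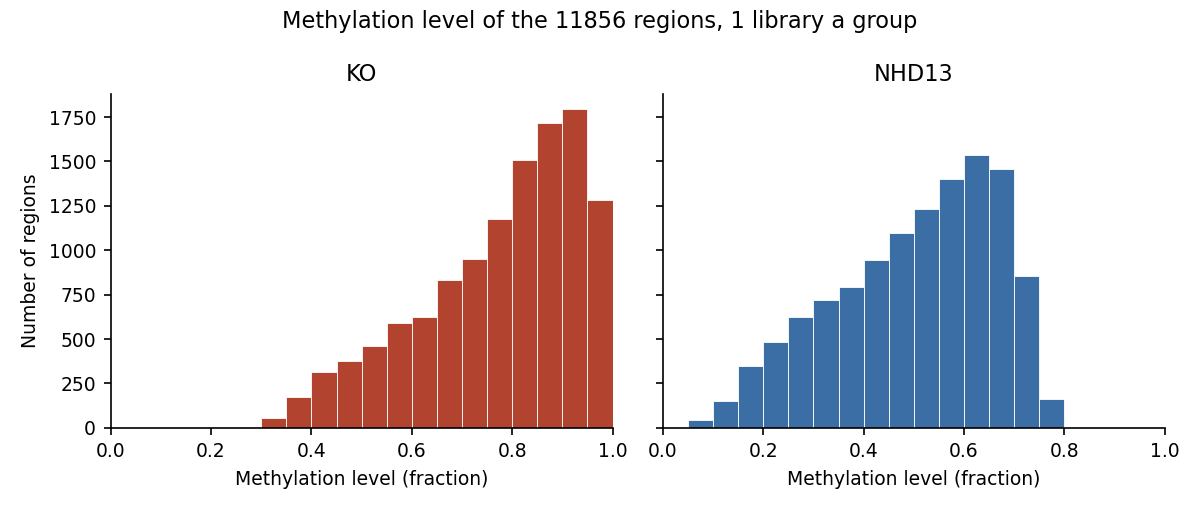
Number of newly methylated regions (y axis) by methylation level as a fraction (x axis, steps of 0.05) in the KO library, left, and the NHD13 library, right. The KO levels have their median at 0.813 and the NHD13 levels at 0.530, and few NHD13 levels are under 0.2.

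The regions were short. Their median length was 187 bases (51 to 4258) and they held a median of 7 cytosine sites (4 to 277). A site is a cytosine and not a CpG dinucleotide: in 44 regions that lay wholly inside a promoter window, the tables listed a median of 2 sites per CpG dinucleotide. With 4 sites, the lowest number the tables hold, 19.5% of the regions rested on few cytosines, against 10.3% of the 10630 regions that rose as much but overlapped a listed NHD13 and WT region. Of those other rising regions, 93.3% met a region that was lower in NHD13 than in WT. The newly methylated regions overlap no such call by the rule, so no share of theirs can be set against that one. Within 1 kb, 9.96% of them had any NHD13 and WT region, 6.38% one lower in NHD13 and 3.68% one higher. Shares within 1 kb were not made for the other regions of the table.

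The regions were spread over the genome. They made up 30.1% (chromosome 11) to 40.6% (chromosome 12) of the listed regions of each chromosome. The median gap to the nearest other newly methylated region was 45258.5 bases, and 6.17% had another within 1 kb. Of the 3 regions just inside the threshold, that in the adenylyl cyclase gene Adcy8 had 0.563 in KO and 0.363 in NHD13. That in Cped1 had 0.462 in KO and 0.262 in NHD13. The last, in no protein-coding gene, had 0.586 in KO and 0.386 in NHD13. Of the 3 just outside, that in the neuronal gene Lingo1 had 0.3899 in KO and 0.1899 in NHD13. That in Reg4 had 0.805 in KO and 0.605 in NHD13. The last, in no protein-coding gene, had 0.8005 in KO and 0.6005 in NHD13.

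Most of the regions lay far from promoters. Start sites were looked up for 11477 regions, all but those on chromosome 18, for which the reference used here lists no starts. Of these, 7.82% lay within 1 kb of a start, 11.9% from 1 to 5 kb away, 47.0% from 5 to 50 kb and 33.3% farther. Of the other rising regions 6.12% lay within 1 kb of a start, and of the 5619 regions that fell by 0.2 or more 10.4% did. A protein-coding gene held 38.9% of the newly methylated regions, 47.6% of the other rising regions and 75.7% of the falling regions. These shares were not tested.

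Among the 897 regions within 1 kb of a start, 186 lay over it, 343 upstream and 368 downstream of the nearest one. Those over a start had median levels of 0.588 in KO and 0.311 in NHD13 and a median length of 397.5 bases. Those upstream had 0.651 in KO and 0.386 in NHD13, those downstream 0.654 in KO and 0.390 in NHD13, and regions farther than 1 kb had 0.822 in KO and 0.540 in NHD13. Regions at starts thus had lower levels in both libraries than regions away from them.

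Levels differed with CpG density. Of all regions, 10981 held at most 10 sites per 100 bases, with median levels of 0.821 in KO and 0.538 in NHD13. The 670 with 10 to 15 sites per 100 bases had 0.660 in KO and 0.418 in NHD13. The 205 with more than 15 had 0.484 in KO and 0.254 in NHD13, and 49.2% of them lay within 1 kb of a start, against 6.60% of the sparse ones. CpG-dense regions were 1.73% of the newly methylated regions, 1.04% of the other rising regions and 4.45% of the falling ones.

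**Figure D2:**
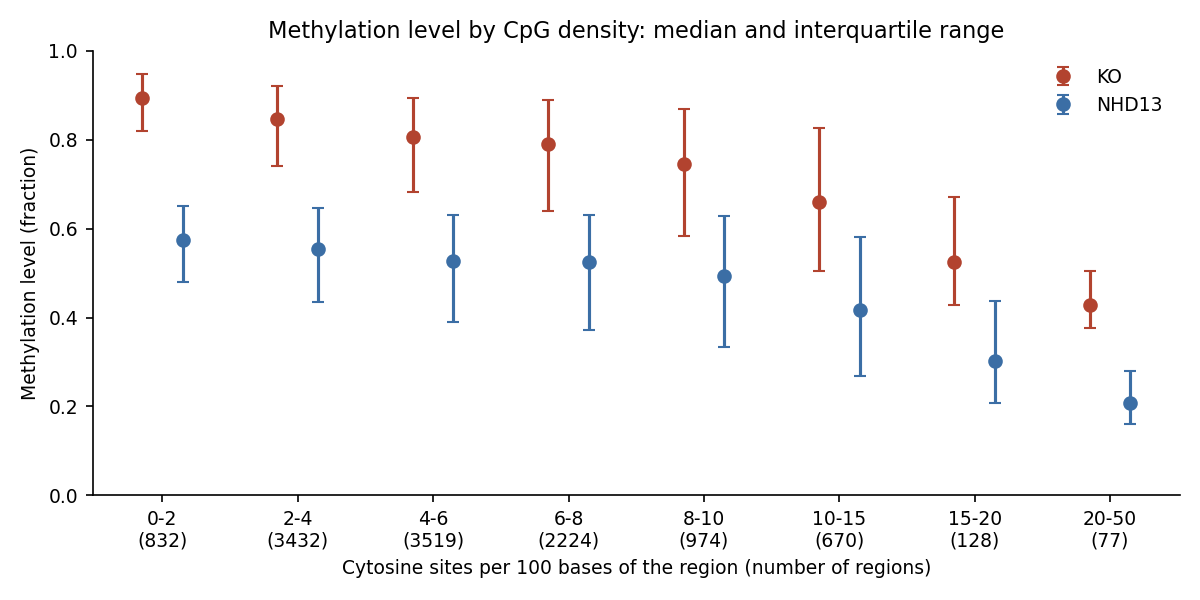
Methylation level (y axis, fraction) of the newly methylated regions by cytosine sites per 100 bases (x axis, with the number of regions), KO to the left of NHD13 at each step. Points are medians and bars quartiles over regions of 1 library per group, and both medians are lowest in the 77 densest regions (0.428 in KO and 0.208 in NHD13).

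The 10 regions with the most sites all lay in or over protein-coding genes. The region with most sites, 277 over 1490 bases (chr12:27340856-27342345), lay in Sox11, a transcription factor gene of neural progenitors, with levels of 0.436 in KO and 0.201 in NHD13. A further region of 505 bases beside it, 87 bases upstream of the Sox11 start, had 0.543 in KO and 0.307 in NHD13. The next were at Irx2 (chr13:72628548-72629541, 244 sites), shown above, which also covers the start of the divergent Gm20554, and in Irx1 (chr13:71963038-71963947, 224 sites), its neighbour in the same homeobox cluster, with 0.447 in KO and 0.218 in NHD13. Onecut2, a transcription factor gene of liver and neurons, had 0.482 in KO and 0.247 in NHD13, and Nr2f2, which encodes the nuclear receptor COUP-TFII, had 0.460 in KO and 0.230 in NHD13. Rims4, a gene of synaptic release, had 0.428 in KO and 0.174 in NHD13, and Sowaha had 0.465 in KO and 0.228 in NHD13. Crhr1, Grik3 and Aqp5 complete the 10. None of the 10 overlapped an H3K36me3 peak of either leukemia.

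The RNA of these genes was low. Of the genes that hold the 10 regions, Sowaha passed the filter on low counts, with 1.84, 1.98 and 2.33 CPM in KO, against 3.02, 3.30 and 2.77 CPM in NHD13, where CPM is the count scaled to library size with TMM factors. All 3 KO libraries were below all 3 NHD13 libraries, but the difference did not pass (log2 -0.56 ± 0.25 SE, adjusted p = 0.0859, edgeR quasi-likelihood test). The other 9 genes were not tested.

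The 10 regions with the largest difference, taken from those with 5 sites or more, were another kind. In 9 of them there were 5 to 8 sites, and 8 lay in no protein-coding gene. The largest difference was at chr12:32286995-32287050, 5 sites over 56 bases, with 0.935 in KO and 0.219 in NHD13. A region with 38 sites, chr2:65363776-65364243, covered the start of Slc38a11, a gene of the amino acid transporter family, with 0.863 in KO and 0.323 in NHD13. Slc38a11 RNA was too low to be tested. Hairpins of 3 miRNAs lay partly in newly methylated regions. The level was 0.697 in KO and 0.384 in NHD13 at Mir449a, a miRNA of multiciliated cells, 0.642 in KO and 0.399 in NHD13 at Mir5619, and 0.414 in KO and 0.196 in NHD13 at Mir8090.

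Part of the regions appeared again in the authors' table of regions that differ between KO and AML. That comparison shares the KO library with the rule, and it compares spleen C-Kit+ cells with bone marrow HSPCs, so the stage, the tissue and the sort cannot be told apart. Of the 11856 regions, 2155 (18.2%, Wilson 95% interval 17.5% to 18.9%, counting error only) overlapped a region lower in AML, against 20.5% of all 32485 regions. Another 787 (6.64%, 6.20% to 7.10%) overlapped one higher in AML, against 11.2%. Of the other rising regions 35.6% were lower and 2.99% higher in AML, and of the falling regions 4.57% were lower and 25.3% higher. No region overlapped both. The other 75.2% met no listed difference between KO and AML, for which the AML level is not given by the tables used here.

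Those lower in AML had a median of 0.472 in AML, 0.805 in KO and 0.511 in NHD13, and 61.1% of them were at or below their NHD13 level in AML. Those higher in AML had a median of 0.798 in AML, 0.434 in KO and 0.275 in NHD13. The share higher in AML grew with CpG density, and the share lower in AML did not follow it in 1 direction. Among the sparse regions 18.3% were lower and 4.64% higher in AML, and among those of 10 to 15 sites per 100 bases 13.7% were lower and 24.8% higher. Of the 205 densest, 23.4% were lower and 54.1% higher. The KO level also differed with density, with a median of 0.821 in the sparse regions and 0.484 in the densest. Density and KO level were not told apart here, and shares by density were not made for the other regions of the table. All 10 regions with the most sites were among the higher ones. The region of the AML table at Sox11 had 0.871 in AML and 0.449 in KO, that at Irx2 0.909 in AML and 0.436 in KO, and that at Sowaha 0.922 in AML and 0.374 in KO. The regions of the AML table are often longer than the regions they meet, so their KO levels can differ from those given above. At Grik3 the KO level was 0.473 in the AML table and 0.578 in the newly methylated region, and in Adcy8 it was 0.184 and 0.563. In the medians of this paragraph, AML and KO levels are those of the AML table. The NHD13 levels are those of the newly methylated regions, so the stretches compared can differ.

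**Figure D3:**
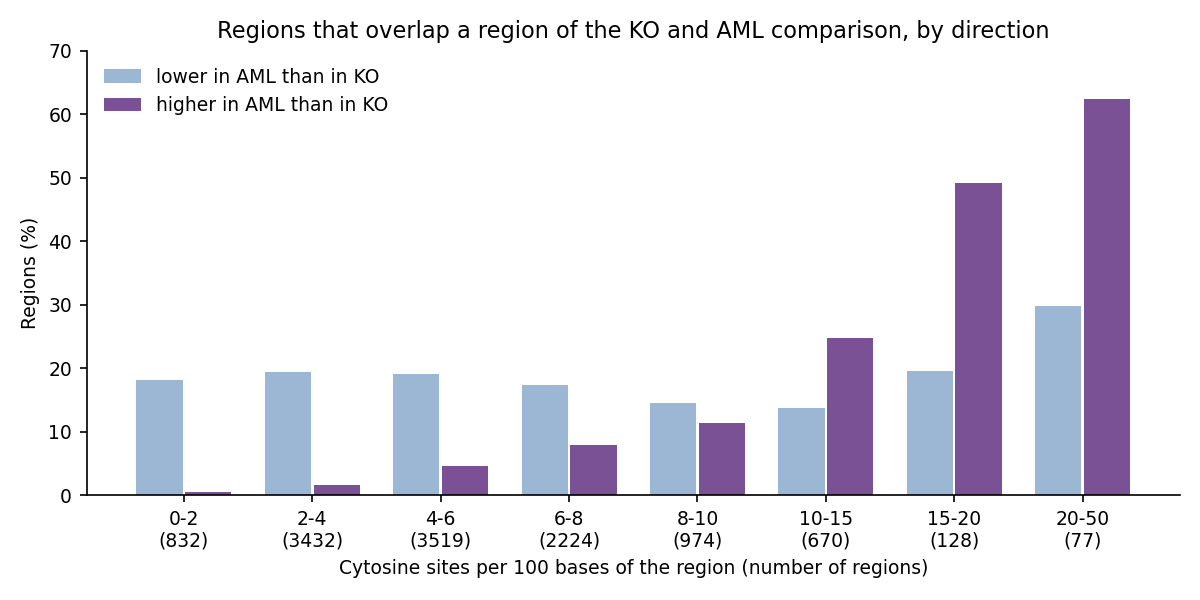
Percentage of newly methylated regions (y axis) that overlapped a region lower (light bars) or higher (dark bars) in AML than in KO, by cytosine sites per 100 bases (x axis, with the number of regions). The share higher in AML reaches 62.3% in the 77 densest regions, against 0.481% in the 832 sparsest.

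**Figure D4:**
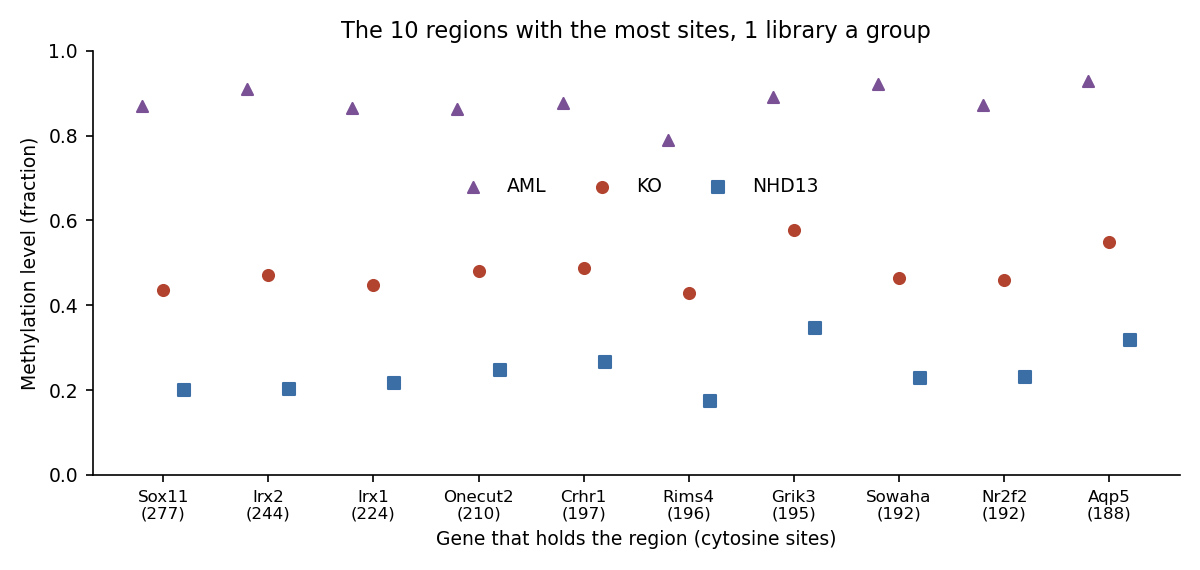
Methylation level (y axis, fraction) of the 10 newly methylated regions with the most cytosine sites, by the gene that holds them (x axis, with the number of sites), in AML, KO and NHD13 from left to right, 1 library each. The AML level is that of the overlapping, often longer region of the AML table, and in all 10 it is above the KO level, which is above the NHD13 level.

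Few of the regions met H3K36me3. The mark was profiled in leukemia-stage spleen cells and not in the HSPCs, and each list holds the authors' broad peaks of 1 library. In the KO leukemia 22 regions (0.186%, Wilson 95% interval 0.123% to 0.281%) overlapped 1 of 16902 peaks, against 1.35% of all regions of the table. In the NHD13 leukemia 195 regions (1.64%, 1.43% to 1.89%) overlapped 1 of 30953 peaks, against 10.4% of all. The other rising regions overlapped peaks of the KO leukemia in 1.30% and of the NHD13 leukemia in 6.45% of cases, and falling regions in 3.90% and 38.1%. Within protein-coding genes, where the mark is usually found, 0.282% of the newly methylated regions met a peak of the KO leukemia and 3.88% one of the NHD13 leukemia, against 2.45% and 13.0% of the other rising regions and 2.40% and 18.8% of all regions in such genes. The regions of higher methylation therefore lay mostly outside listed H3K36me3 peaks of either leukemia.

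The RNA libraries had 18673704 to 28127686 counts, and replicates of each group differed beyond sampling noise. Nothing in the labels says that replicates are different animals, so the p-values rest on a spread between libraries that may be technical. The counts of Setd2 do not check the deletion: 33.1, 29.2 and 34.9 CPM in KO, against 34.4, 34.6 and 31.5 CPM in NHD13 (adjusted p = 0.685), and counts over the whole gene need not show the loss of an exon. A newly methylated region of 6 sites lay inside Setd2 itself, 9691 bases downstream of its start, with 0.552 in KO and 0.183 in NHD13. The KO and NHD13 libraries differed in sex: relative to all counts of a library and without TMM factors, Xist had 0.0356 to 0.0979 CPM in KO and 53.9 to 109 CPM in NHD13, and the Y-linked Eif2s3y had 53.8 to 59.0 CPM in KO and at most 0.0404 CPM in NHD13. In the RNA comparison, sex and Setd2 genotype cannot be told apart. On chromosome X, which the rule leaves out, 32.8% of 4832 listed regions were lower in KO than in NHD13, against 20.8% on chromosomes 1 to 19, and the sex of the bisulfite libraries was not tested. Of the HSPC markers, Kit had 101 ± 5.28 CPM in KO and 73.6 ± 3.63 CPM in NHD13, and Cd34 had 147 ± 5.66 CPM in KO and 12.6 ± 0.94 CPM in NHD13 (SD, n = 3). The summed level of 29 neutrophil genes was 59941 to 63399.5 CPM in KO and 160862 to 185192 CPM in NHD13. The defining T cell markers Cd3e and Cd3g were too low to be tested. Nkg7, the other marker of the T and NK cell set, had 1137 ± 19.9 CPM in KO and 2403 ± 198 CPM in NHD13 (SD, n = 3). Methylation and RNA are both averages over sorted cells. Fewer cells of a type and less RNA per cell cannot be told apart in them, and the same holds for the mix of cells and the methylation of each cell.

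RNA of genes with a newly methylated region at their start was more often lower than higher in KO. Such a region lay within 1 kb of a start of 910 RefSeq genes, 744 of which were matched to the count table, and 366 passed the filter on low counts. Of these 366 genes, 64 rose (17.5%, where 20.6% of all 16233 genes tested rose), 127 fell (34.7%, where 20.3% of all genes fell) and 175 did not pass at an adjusted p of 0.05. Their median log2 fold change was -0.08, against 0.02 over all genes. With the difference threshold at 0.3 instead of 0.2, 52 such genes were tested, of which 12 rose and 16 fell. Among the 284 genes whose region was sparse in CpG, 47 rose and 103 fell, and among the 82 with more than 10 sites per 100 bases 17 rose and 24 fell. The genes at starts of the other rising regions had 48 rises and 137 falls among 293 tested, and those of falling regions 130 rises and 88 falls among 472. The neutrophil list, all of which fell, gave 5 of the 127, and the part of neutrophil RNA in the count was not tested.

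The 12 largest falls among start-site genes were taken from genes with at least 5 CPM in the higher group. Pglyrp1, an antibacterial protein of neutrophil granules, had 194, 209.6 and 215 CPM in KO, against 1129.6, 1252 and 1238 CPM in NHD13 (log2 -2.55 ± 0.06 SE, adjusted p = 3.17e-16). Its region (chr7:18884713-18885251) began 23 bases downstream of the start and had levels of 0.426 in KO and 0.161 in NHD13. Plbd1 had 4.74, 4.76 and 4.89 CPM in KO, against 38.0, 42.3 and 44.3 CPM in NHD13 (log2 -3.11 ± 0.09 SE, adjusted p = 6.01e-15). In Pglyrp1 and Plbd1 the libraries of both groups lay far apart. Alox5, the lipoxygenase of leukotriene synthesis, had 6.22, 9.44 and 7.17 CPM in KO, against 43.8, 35.5 and 49.6 CPM in NHD13 (log2 -2.48 ± 0.16 SE, adjusted p = 2.37e-09). Its region of 73 sites, 21 bases downstream of the start, was CpG-dense, had 0.468 in KO and 0.230 in NHD13, and was among those higher still in AML. G0s2, an inhibitor of fat breakdown, had 5.48, 6.13 and 4.56 CPM in KO, against 35.4, 38.9 and 41.5 CPM in NHD13, and its region had 0.719 in KO and 0.439 in NHD13.

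Prom1, whose promoter is shown above, had 16.1, 19.8 and 15.99 CPM in KO, against 109, 104.5 and 84.3 CPM in NHD13 (log2 -2.51 ± 0.12 SE, adjusted p = 1.52e-11). Sema4a, a semaphorin of immune cells, had 24.0, 27.0 and 21.0 CPM in KO, against 152, 112 and 162 CPM in NHD13. Its region had 0.683 in KO and 0.349 in NHD13, 734 bases downstream of the start. Among genes at low levels, Myl10 had 0.369, 0.304 and 0.285 CPM in KO, against 9.88, 7.29 and 7.81 CPM in NHD13 (log2 -4.69 ± 0.22 SE, adjusted p = 2.64e-12), the largest fall among these genes. Besides the region over its promoter, Myl10 held 3 others, of which the nearest, 967 bases downstream of the start, had 0.918 in KO and 0.602 in NHD13. Tnfsf13b, which encodes the B cell survival factor BAFF, had 0.738, 0.419 and 0.475 CPM in KO, against 10.7, 9.12 and 9.15 CPM in NHD13. The clotting factor gene F5, the activin subunit gene Inhba, the let-7 inhibitor gene Lin28a and the transporter gene Abca13 fell by 3.63, 3.53, 2.95 and 2.84 on the log2 scale. In all 12 genes the highest KO library was below the lowest NHD13 library.

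Rises occurred beside newly methylated regions too. Vldlr, a lipoprotein receptor gene, had 7.90, 7.69 and 8.88 CPM in KO, against 0.108, 0.0524 and 0.297 CPM in NHD13 (log2 5.66 ± 0.29 SE, adjusted p = 9.87e-12), with a region of 109 bases over its start at 0.444 in KO and 0.240 in NHD13. Scin, an actin-severing protein gene, had 42.1, 43.4 and 41.1 CPM in KO, against 3.996, 3.41 and 3.56 CPM in NHD13 (log2 3.53 ± 0.11 SE, adjusted p = 8.37e-15). Its region covered 986 bases from 344 bases downstream of the start, with 0.737 in KO and 0.387 in NHD13. In Vldlr and Scin the groups lay apart as widely as in the largest falls. Mef2c, a transcription factor gene of myeloid and lymphoid progenitors, had 155, 173 and 151 CPM in KO, against 49.0, 48.4 and 43.1 CPM in NHD13, and its region had 0.476 in KO and 0.233 in NHD13. F13a1, the gene of clotting factor XIII subunit A, had 212, 231 and 209 CPM in KO, against 71.4, 74.9 and 61.3 CPM in NHD13, with a region over its start at 0.527 in KO and 0.241 in NHD13. The other 8 of the 12 largest rises were Tmsb10, Chn2, Luzp1, Slc18a2, Ap5s1, the clock gene Per1, Tmem268 and the fragile-site gene Fhit, between 1.19 (Fhit) and 2.32 (Tmsb10) on the log2 scale. In each the lowest KO library was above the highest NHD13 library.

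**Figure D5:**
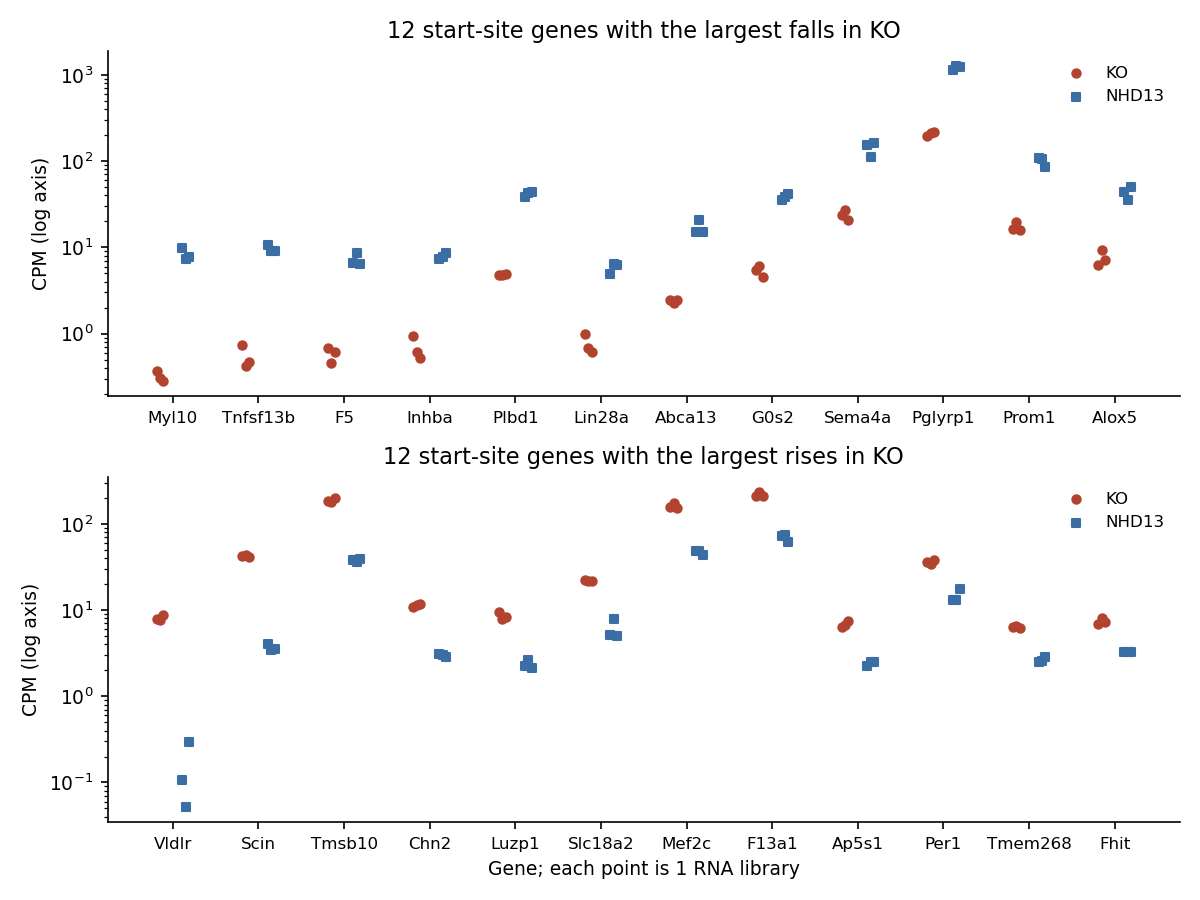
RNA level (y axis, CPM on a log axis) in each of 3 KO libraries, left, and 3 NHD13 libraries, right, of start-site genes, with the 12 largest falls above and the 12 largest rises below. No gene has KO and NHD13 libraries that overlap, as the rule chose genes with the largest changes.

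The same 366 genes were counted in the comparisons beside this one, which share its libraries. In NHD13 against WT, 102 rose (27.9%) and 138 fell (37.7%), where 25.3% and 28.7% of all genes did. In that comparison, start-site genes of the other rising regions had 45.1% rises and 27.6% falls, and those of the falling regions 27.5% and 28.4%. In AML against KO, 184 rose (50.3%) and 113 fell (30.9%), where 42.8% and 39.5% of all genes did. Start-site genes of the other rising regions had 47.1% rises and 34.5% falls there, and those of the falling regions 53.0% and 32.4%. Rises over falls in AML were thus not particular to the newly methylated regions. The median log2 of all genes in AML against KO was 0.07 with TMM factors and -0.11 with upper-quartile factors. Prom1 was higher in NHD13 than in WT (99.4 ± 13.2 CPM in NHD13 and 8.77 CPM in WT, log2 3.50), and Pglyrp1 was too (1207 ± 66.9 CPM in NHD13 and 82.9 CPM in WT, log2 3.86). Myl10 went the other way and was lower in NHD13 than in WT (8.33 ± 1.37 CPM in NHD13 and 44.1 ± 3.67 CPM in WT, log2 -2.41). In AML against KO, Plbd1 rose (81.3 CPM in AML and 4.796 CPM in KO on average, log2 4.08) and Alox5 fell (0.0676 CPM in AML and 7.61 CPM in KO, log2 -6.69), and both of their regions were higher in AML.

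Newly methylated regions lay in the bodies of 4431 RefSeq genes, of which 1747 were tested. Of these, 434 rose (24.8%) and 512 fell (29.3%), beside the 20.6% and 20.3% of all genes, and the median log2 fold change was 0.00. The genes with the most regions were long. Park2, which encodes the ubiquitin ligase parkin, held 14 regions between 0.705 and 0.991 in KO and between 0.479 and 0.747 in NHD13. Csmd1, the gene of a complement-regulating membrane protein, also held 14, between 0.473 and 0.986 in KO and between 0.227 and 0.782 in NHD13. The RNA of both was low, with 1.16 ± 0.41 CPM in KO and 0.646 ± 0.21 CPM in NHD13 for Park2 (SD, n = 3), which did not pass but did without KO replicate 2 (log2 0.82, and 1.08 without it). Csmd1 had 0.66 ± 0.14 CPM in KO and 0.156 ± 0.14 CPM in NHD13 (log2 2.05 ± 0.61 SE, adjusted p = 0.0116 by edgeR) and did not pass without NHD13 replicate 2 (log2 1.49). Ltbp1 held 12 regions, and Asic2 and Tshz2, not tested for low counts, 10 each. Cdh23, a cadherin gene with 9 regions, fell, with 1.84, 1.90 and 1.90 CPM in KO, against 3.67, 6.03 and 5.93 CPM in NHD13.

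Among genes with a region in the body only, the 4 largest falls and the 4 largest rises were named by the rule used for starts. Itgb2l, an integrin gene of neutrophils, had 3.32, 3.69 and 3.56 CPM in KO, against 77.2, 69.6 and 77.8 CPM in NHD13 (log2 -4.40 ± 0.10 SE, adjusted p = 6.89e-17), and its region had 0.700 in KO and 0.406 in NHD13. The macrophage chitinase gene Chit1 fell (log2 -5.07), as did Afap1 (log2 -5.56), an actin-binding protein gene with 3 regions, and Tinagl1 (log2 -4.35). The rises were Afap1l1 (log2 3.54), Paqr5 (log2 3.53), the sialyltransferase gene St8sia6 (log2 3.49) and Rab40b (log2 3.05).

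Gene lists of blood cells are read against all genes tested, of which 20.6% rose and 20.3% fell in KO. All 29 neutrophil genes tested fell (median log2 -2.35), and so did the 6 with a newly methylated region, 5 of them with one at the start. Mgst1, a glutathione transferase gene of granulocyte precursors, had 41.2, 42.3 and 38.7 CPM in KO, against 216, 219.6 and 189 CPM in NHD13. One region lay 179 bases upstream of its start, with 0.517 in KO and 0.134 in NHD13, and another 101 bases downstream, with 0.912 in KO and 0.675 in NHD13. The other linked genes named were Ms4a3, a marker of granulocyte-monocyte progenitors (log2 -1.49), the chemokine receptor gene Cxcr2 (log2 -1.51) and the G-CSF receptor gene Csf3r (log2 -1.26). Of 16 B cell genes 15 fell, among them all 3 linked ones, Ebf1, Blnk and Pax5. Ebf1, the factor that commits cells to the B lineage, held 6 regions, and the summed level of the B cell list was 64.2 to 69.9 CPM in KO and 128 to 133 CPM in NHD13.

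Of 22 stem cell genes 18 rose and none fell (median log2 2.92), and of the 7 linked ones 5 rose and 2 did not pass. Mecom, a transcription factor gene of stem cells, had 19.3, 19.6 and 16.7 CPM in KO, against 2.70, 2.46 and 2.32 CPM in NHD13 (log2 2.89 ± 0.13 SE, adjusted p = 2.68e-12), with 5 regions in its interval. The transcription factor genes Hlf (log2 1.45) and Runx1 (log2 0.57) and the receptor gene Kit (log2 0.46) rose with regions in their bodies. Of 17 megakaryocyte genes 15 rose and 2 fell, and of the 3 linked ones Itga2b (log2 2.43) and Vwf (log2 1.32) rose and Fli1 fell (log2 -0.68). Of 17 monocyte genes 10 rose and 5 fell, and the 2 linked ones, Tlr4 (log2 -1.68) and Adgre1 (log2 -0.56), fell. The erythroid list had 5 rises and 5 falls among 26 genes, near the shares of all genes, and its 3 linked genes 1 rise and 1 fall. The T and NK cell list had 2 rises and 3 falls among 13 genes and the dendritic list 4 rises and 2 falls among 15, and none of their linked genes (4 and 2 tested) passed.

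Of 40 genes that write, read or remove DNA and H3K36 methylation, 11 rose (27.5%, where 20.6% of all genes rose), 8 fell (20%, where 20.3% of all genes fell) and 21 did not pass. The share of falls was thus that of all genes. The count of rises was 7 without KO replicate 1, and that of falls was 5 without KO replicate 1, without KO replicate 3 or without NHD13 replicate 1. Dnmt3b had 45.4, 50.2 and 46.4 CPM in KO, against 16.1, 15.2 and 19.6 CPM in NHD13 (log2 1.48 ± 0.09 SE, adjusted p = 6.79e-11). Dnmt3a had 36.6, 48.9 and 40.6 CPM in KO, against 24.4, 19.3 and 27.4 CPM in NHD13 (log2 0.83 ± 0.12 SE, adjusted p = 3.75e-05), with a newly methylated region of 5 sites 1462 bases downstream of its start at 0.574 in KO and 0.352 in NHD13. Both de novo methyltransferase genes were thus higher in every KO library than in any NHD13 library. In WT, Dnmt3b had 37.6 ± 1.64 CPM and Dnmt3a 32.0 ± 2.21 CPM (SD, n = 3), between the NHD13 and KO means. Dnmt3l, their cofactor in germ cells, was low and fell, with 0.648 ± 0.17 CPM in KO and 2.99 ± 0.508 CPM in NHD13 (SD, n = 3). Dnmt1 and Uhrf1 did not pass (log2 -0.24 and -0.64). Dnmt1 passed without KO replicate 2 (log2 -0.32), and both passed when only KO and NHD13 libraries were fitted. Of the oxidizing enzymes, Tet1 rose, with 11.0, 9.44 and 8.97 CPM in KO, against 3.94, 4.88 and 3.41 CPM in NHD13. Tet3 rose slightly (log2 0.25) but did not pass without KO replicate 1 (log2 0.25), KO replicate 3 (log2 0.23) or NHD13 replicate 1 (log2 0.19), and Tet2 stood at a log2 of 0.01.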

How the data were processed

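Methylation levels are fractions (0 to 1), which the authors deposited as a mean per region and library in 3 tables of regions. Bismark 0.19.0 and mm10 are named for them in the submitters' processing notes, while the sources used here name no caller of the regions, no thresholds, no smoothing and no coverage. Each table has 1 library a side, taken in the order of the table's name. The order was checked on regions with identical coordinates in tables that share a library, whose levels differed by a median of 1.19e-06 (4032 regions) and 9.36e-06 (2467 regions). The difference per region and its area statistic, deposited by the authors as scores, were used only to check signs. H3K36me3 peaks were called with MACS2 2.1.1.20160309, per the submitters' processing notes, on 1 library per list. The fold enrichment and the −log10 p and −log10 q per peak are the authors' deposited values, of which −log10 q was used for a stricter alternative. RNA counts per gene were made by the authors with HISAT2 2.0.5 and HTSeq 0.9.1 on mm10, per the submitters' processing notes, and no strand setting is stated, so reads of overlapping genes, antisense ones included, cannot be told apart. The authors' deposited FPKM table was used only for gene symbols.

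Regions were taken as listed, 1-based, and an overlap of at least 1 base counted as shared. Shares have Wilson 95% intervals, which cover counting error over regions only, and neighbouring regions are not independent. With 1 library a group, methylation and H3K36me3 have no replicate check and no test. Counts of 12 RNA libraries in 4 groups were filtered with filterByExpr (16233 of 53946 genes kept), scaled with TMM and fitted together with edgeR 4.0.16 in R 4.3.3 (robust quasi-likelihood F test, 8 residual degrees of freedom), with Benjamini-Hochberg adjustment over all genes tested and a threshold of 0.05. SE values are from the same fit. The steps were tested on simulated counts. RefSeq starts and promoter stretches (GRCm38.p6) gave start-site genes (a region within 1 kb of the start) and gene-body genes (a region inside the gene). Genes were named by rule: the 12 largest rises and falls of start-site genes, and 4 of gene-body genes, with at least 5 CPM in the higher group, the 6 genes with most regions, up to 4 linked genes of each of 16 lists, and the methylation enzymes. Some named items are not reported here. The regions, lists and rules were chosen with earlier results of these data known. Same-numbered libraries did not deviate together (correlations of -0.0876 to 0.109), so no pairing was used. Alternatives covered thresholds, overlaps, scaling, filtering, DESeq2 1.42.0, the samples fitted and each library left out.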

Additional observations from a re-analysis of the deposited data

How the results depend on the processing

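The numbers of regions and shares moved with the thresholds. At a difference of 0.3 there were 2920 regions, and with at least 10 sites 4531. With an overlap of at least 0.5 of the region, 15.3% were lower and 4.85% higher in AML, and at a difference of 0.3 it was 24.2% and 1.95%. H3K36me3 peaks of the KO leukemia met 0.103% of the regions at 0.3 and 0.0422% with peaks of −log10 q of at least 5, and those of the NHD13 leukemia 1.16% and 1.17%. Start-site genes numbered 201 that rose and 289 that fell of 921 within 5 kb, and 12 and 16 of 52 at 0.3, where gene-body genes had 117 rises and 165 falls of 480. Methylation enzyme genes had 7 to 10 rises and 5 to 8 falls with 1 library left out. Numbers of genes called in the other alternatives stayed within 1.5 times. With a replicate block, 62 start-site genes rose and 126 fell. Same-numbered libraries share no more than a number, and the block moved no count of calls by over 1.5 times.

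Of the named genes' log2 values, 948 alternatives kept direction and side of the threshold, 16 lost the call, 9 gained it and 15 changed sign, all of the last at genes that did not pass. Setd2 was at 0.020 with upper-quartile factors and at -0.10 to 0.033 with 1 library left out. Without the filter Il2rb was at -0.0023 and Tet2 at -0.0021. With 1 library left out, Gata3 lay between -2.02 and 3.86, Cd247 between -0.10 and 0.78, Il2rb between -0.37 and 0.56, Sgce between -0.29 and 1.07, Cdkn2a between -3.37 and 0.15 and Tet2 between -0.069 and 0.058. The cause of these shifts was not tested. Methylation levels have no known depth, and regions of 4 sites rest on few cytosines.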

Other observations

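Genes of other lists also lay beside newly methylated regions. Of 20 Hox and cofactor genes tested 11 rose, among them the linked Hoxc6 (11.1 ± 0.369 CPM in KO and 4.83 ± 0.681 CPM in NHD13, SD, n = 3). Atf3, the linked gene of the AP-1 and immediate early list, of which 14 of 16 genes rose, had 56.4 ± 3.398 CPM in KO and 15.1 ± 1.73 CPM in NHD13 (SD, n = 3). Ifitm2, the linked gene of an interferon list with 7 rises and 3 falls among 20 genes, rose (log2 0.58). Of 15 imprinted genes tested 5 rose and 1 fell, and the fall was Igf2r (log2 -0.55), a receptor gene with 2 regions in its body. The list of leukemia genes and tumor suppressors had 8 rises and 3 falls among 20 genes, with 1 rise and 1 fall among 4 linked. Mast cell, basophil and eosinophil genes had 5 rises and 4 falls among 13, and none of the linked ones was tested.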
